A study of Mus musculus with 4 samples.

Results

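Copy number around Raet1a, an array name of the mouse retinoic acid early inducible 1 cluster, was examined in liver tumours that had lost Trp53, the p53 tumour suppressor gene. The region was taken as all genomic probes of the array that start within a 700 kb window of chromosome 10 (mm9 build), which gave 35 of the 170305 probes measured. Of these, 12 carried the name Raet1a, and no probe of the array carried the name of another Raet1 gene or of H60. The window had been chosen by the ratios of these same 4 arrays, so its ratios are given as a description, with no test.

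Array comparative genomic hybridisation compared the DNA of 4 liver tumours with reference DNA. Each tumour came from a separate untreated C57BL/6J mouse with liver-specific loss of Trp53, kept free of specific pathogens, and both channels are labelled Trp53-/- and male. The labels name the reference as spleen, pooled from 3 littermates in the design text, while the labelling protocol calls it liver. They give neither an age nor the driver of the liver-specific deletion. No DNA from non-tumour tissue of the tumour-bearing mice was analysed here. Tumour DNA was in the red channel and reference DNA in the green one, so log2 ratios above 0 stand for an excess of tumour DNA. The autosomal median, over 161460 probes, was set to 0 on every array, and the noise SD between neighbouring probes was 0.26, 0.32, 0.16 and 0.17 in tumours 1 to 4.

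The Raet1 and H60 genes encode cell surface proteins related to MHC class I that are recognised by NKG2D, an activating receptor of natural killer cells and of some T cells. They are low in most healthy adult tissues and are induced in cells that proliferate, carry DNA damage or are infected. The genes lie in a cluster of related sequences, and mouse strains differ in which Raet1 genes they carry. Raet1a is a name of the array that is not among the symbols of the RefSeq table used here (GRCm38.p6). Which gene of this strain the name stands for was not checked. The RefSeq table, used only for names and neighbours, orders the protein-coding genes after Sgk1 as 4930444G20Rik, E030030I06Rik, Raet1e, H60b and Raet1d.

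The ratio stepped up and down again inside the run of probes named Raet1a, and the following probes mark that step. The first and the last probe of the raised stretch lie at chr10:21998927-21998977 and chr10:22072700-22072759 (mm9), and the probe with the highest mean ratio lies at chr10:22006887-22006946. Sequences are as in the deposited files.
first probe of the stretch: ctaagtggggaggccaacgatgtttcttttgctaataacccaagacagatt
probe with the highest mean: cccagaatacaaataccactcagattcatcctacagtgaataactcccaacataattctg
last probe of the stretch: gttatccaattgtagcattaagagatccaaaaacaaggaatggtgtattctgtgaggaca

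The probes named Raet1a at either outer edge, which were not raised, are near-copies of each other. They lie at chr10:21900484-21900543 and chr10:22090718-22090777 (mm9), with 190.2 kb between their starts, on opposite sides of the raised stretch. Capitals mark the 47 bases that are the same over 54 aligned positions, an identity of 87.0%.
left edge: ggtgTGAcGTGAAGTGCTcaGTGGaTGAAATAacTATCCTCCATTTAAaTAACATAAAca
right edge: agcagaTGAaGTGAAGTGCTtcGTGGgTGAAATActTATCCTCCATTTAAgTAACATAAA

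A further probe matches the start region of a named gene. The raised probe at chr10:22022579-22022638 (mm9) matched 59 bases, shown in capitals, of the RefSeq start region of Gm26740 on the opposite strand. Gm26740 is a long non-coding RNA gene listed next to Raet1e in GRCm38.p6.
probe matching the Gm26740 start: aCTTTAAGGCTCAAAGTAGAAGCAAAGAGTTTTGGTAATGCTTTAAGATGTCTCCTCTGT
Related sequence is also seen between the genes themselves. The start regions of Raet1d and of 1 of the 2 Raet1e entries in RefSeq (GRCm38.p6) shared 295 of 298 aligned bases, or 99.0%. Among the 9 raised probes, the best match to any other probe of the array covered at most 31 identical bases. That search covered array probes only, so it cannot show whether the raised probes match other sequence of the genome.

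Across the window, 9 consecutive probes, all named Raet1a, formed the longest run in which every probe's mean log2 ratio over tumours was at least 0.3. The run spanned 73.8 kb. The 9 probes averaged 0.73, 0.65, 0.60 and 0.61 in tumours 1 to 4. The average over tumours was 0.65 ± 0.06 (SD, n = 4), which is 1.57 times the reference. The tumours thus lay close together, from 1.52-fold in tumour 3 to 1.66-fold in tumour 1. The SE over the 9 probes was 0.07, 0.09, 0.10 and 0.04 in tumours 1 to 4; it describes how the probes of 1 array scatter and is no error for a comparison of tumours, which have 1 array each.

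**Figure D1:**
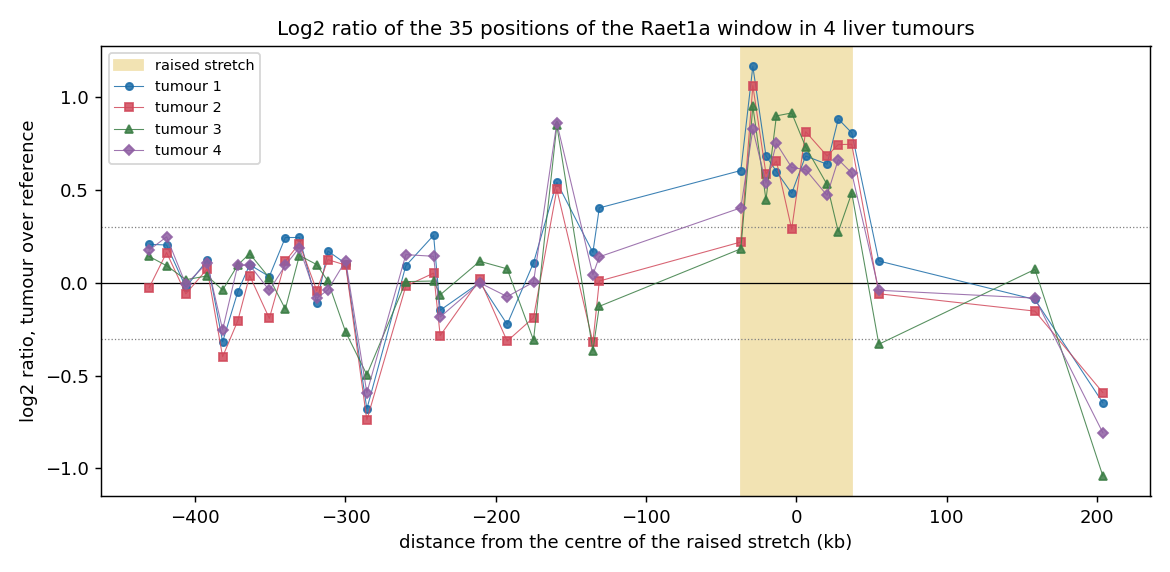
Log2 ratio (tumour over reference, vertical axis) of the 35 probes of the window against their distance in kb from the centre of the raised stretch, with 1 line per tumour. Dotted lines mark the threshold of 0.3 in either direction; the shaded 9 probes are above 0 in all 4 tumours, and 3 single probes outside the stretch are past the threshold in all 4.

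The values of the single probes follow, as a description, since the stretch was drawn from their means. Of the 36 values (9 probes in 4 tumours), all were above 0 and 32 were at least 0.3. The scanner software gives each ratio an error, 0.21 in the median here, and 31 of the 36 values were larger than 2 of their own errors. These counts are largely set by how the stretch was drawn. All 9 probes reached 0.3 in tumours 1 and 4, whose arrays shared a slide, and 7 of 9 did in tumours 2 and 3, which had a slide each; the part of the slide in this was not tested. The highest probe, at 22006887, had ratios of 1.17, 1.06, 0.95 and 0.83 in tumours 1 to 4. Its lowest tumour lay above the mean of each of the other 8 probes.

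The neighbour at 22015626 had 0.68, 0.59, 0.45 and 0.54. The probe that matches the Gm26740 start had 0.60, 0.66, 0.90 and 0.75, with tumour 3 the highest. At 22032732 the ratios were 0.48, 0.29, 0.92 and 0.62, the widest split between tumours 2 and 3 in the stretch. The order of the tumours was thus not the same at adjacent probes. In the second part of the stretch, the probe at 22041985 had 0.68, 0.82, 0.73 and 0.61, and that at 22056260 had 0.64, 0.68, 0.53 and 0.47. At 22063735 they were 0.88, 0.75, 0.28 and 0.67, where tumour 3 stood below the other tumours. The last raised probe had 0.81, 0.75, 0.49 and 0.59. Tumour 1 was the highest at 5 of the 9 probes and tumour 3 the lowest at 4, and every tumour but tumour 4 was the highest at some probe.

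**Figure D2:**
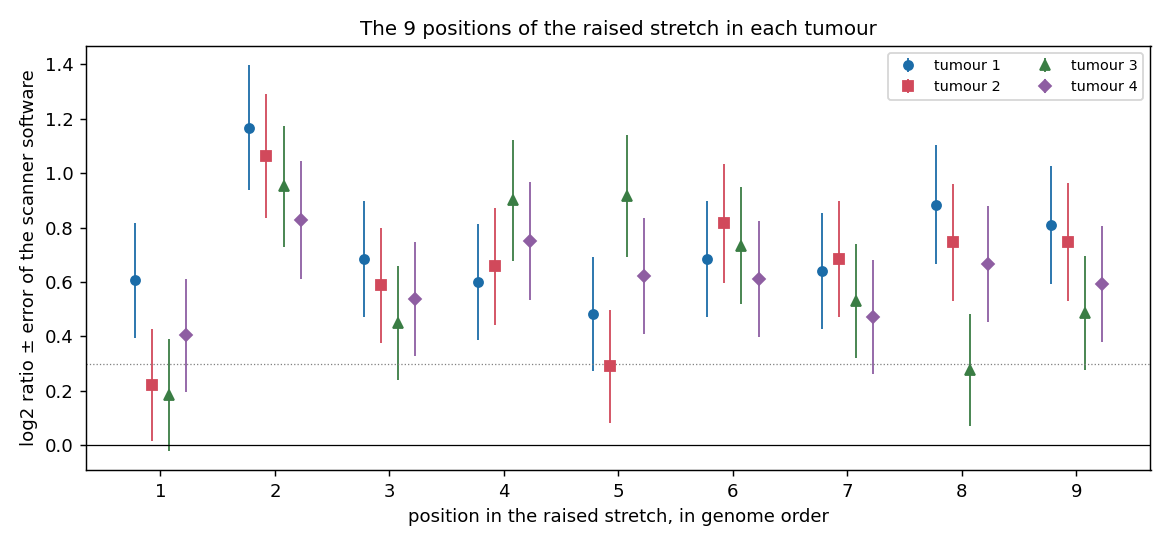
Log2 ratio of each of the 9 raised probes in genome order (horizontal axis, 1 to 9) in the 4 tumours; points are the measured ratios and bars the error given by the scanner software. The second probe is the highest, and the tumours change order from probe to probe, with error bars that overlap at most probes. The dotted line is the threshold of 0.3.

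The first probe of the stretch was the least raised. Its ratios were 0.61, 0.22, 0.18 and 0.40, a mean of 0.35, just inside the threshold of 0.3, and tumours 2 and 3 were under that threshold there. Just outside on the left, the next probe named Raet1a, at 21904748, had 0.40, 0.01, -0.13 and 0.14, a mean of 0.11. The left edge probe whose sequence is shown above had 0.16, -0.32, -0.37 and 0.04. Tumour 1 was therefore the only tumour above 0.3 at the probe before the step. On the right, the last raised probe averaged 0.66. The near-copy at the right edge had 0.12, -0.06, -0.33 and -0.04, a mean of -0.08. The next probe, at 22194536, had -0.09, -0.15, 0.07 and -0.08.

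The array placed the right end of the raised sequence more closely than the left. No probe lies in the 94.1 kb before the stretch, and 18.0 kb separate its last probe from the right edge probe. Gaps of that left-hand length are rare on the array, at 196 of 161441 autosomal gaps (0.121%), against a median gap of 10.8 kb. A second gap of 104 kb follows the right edge probe, so the right end rests on that 1 probe. By the mean over tumours, the raised probes spanned 73.8 kb of the mm9 build, and their nearest neighbours under the threshold lay 186 kb apart. These limits do not hold for each tumour: the left neighbour was at 0.40 in tumour 1, and the segments drawn in single tumours were both longer and shorter. Whether the extra DNA is 1 contiguous piece of such a length was not tested. Which of the Raet1 and H60 genes the raised stretch holds could not be placed from probe names. Every probe in it is called Raet1a, and no mm9 annotation was used. Exons and introns are for the same reason not given.

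Segmentation of chromosome 10 drew these ends differently in different tumours. On the mean over tumours it returned the same 9 probes. In tumour 3 it returned 8 probes from 22006887 (65.9 kb) at a mean of 0.66. In tumours 1 and 4 it returned 12 probes from 21876488 (196 kb) at means of 0.64 and 0.54. In tumour 2, the noisiest array, the stretch was not separated from the rest of chromosome 10 at the same penalty of 4, and with a penalty of 2 it came out as 8 probes at 0.70. The right end was the same wherever the stretch was found, and the left end differed between arrays. The longer segment came from both arrays of the shared slide and the shorter one from arrays on slides of their own, so tumour and slide cannot be told apart in this split. With a penalty of 8 the stretch was found in tumour 3 alone and not on the mean over tumours.

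The longer segment of tumours 1 and 4 starts at 1 unnamed probe, at 21876488, left of the Raet1a names. That probe had 0.54, 0.50, 0.85 and 0.86, so it was high in all 4 tumours, also in tumour 3, where the segment did not reach it. Of the 2 Raet1a probes between it and the gap, 1 was above 0.3 in tumour 1 and neither was in the other tumours. Its neighbour to the left belongs to ENSMUST00000105524, an Ensembl transcript name whose 2 probes averaged -0.06, -0.25, -0.12 and -0.03. Single probes also stood below the reference in all 4 tumours. The unnamed probe at 21750107 had -0.68, -0.74, -0.49 and -0.59, and the last probe of the window, at 22239716, had -0.65, -0.59, -1.04 and -0.81. These 3 isolated probes have these sequences, shown because each was past the threshold in every tumour without an adjacent probe of the window that was. They lie at chr10:21876488-21876547, chr10:21750107-21750166 and chr10:22239716-22239775 (mm9).
isolated high probe: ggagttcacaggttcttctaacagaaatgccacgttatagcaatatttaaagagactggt
isolated low probe, left: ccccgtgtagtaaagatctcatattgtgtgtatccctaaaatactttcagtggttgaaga
isolated low probe, right: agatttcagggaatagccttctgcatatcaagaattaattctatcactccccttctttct

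Over all autosomes, 266 of 161427 probes (0.165%) were at 0.3 or above in all 4 tumours, against 7 of the 35 window probes, 6 of them in the stretch. The window was chosen on this contrast, so nothing is read from that share. At -0.3 or below in all 4 were 1616 autosomal probes (1.00%), among them 2 of the 35. Probes low in every tumour were thus more common on the array than probes high in every tumour.

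Outside the stretch, the window was near the reference level. The 23 probes to its left averaged 0.06, -0.06, 0.00 and 0.05, a mean of 0.02 ± 0.06 (SD, n = 4). They include the 11 probes of Sgk1, which encodes serum and glucocorticoid regulated kinase 1, an enzyme of sodium transport and stress signalling. Sgk1 had 0.06, -0.03, 0.06 and 0.06. AK089995, a transcript name of the array, had 0.05, -0.12, -0.03 and -0.02 over 2 probes. None of these names reached 0.3 in any tumour, unlike Raet1a, whose 12 probes together had 0.60, 0.45, 0.38 and 0.47. The Raet1a average over all 12 is lower than that of the stretch because it takes in the 3 unraised edge probes. The 3 probes right of the stretch averaged -0.21, -0.27, -0.43 and -0.31, through the low last probe.

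The means of the raised stretch lay closer together over the 4 tumours than those of chromosomes 9, 12 and 15. These 3 were picked as changed chromosomes, and the stretch was drawn from its mean over all 4 tumours. The contrast is thus partly set by these choices, and other stretches as even are given below. The means of the Raet1a stretch spanned 0.13 on the log2 scale from the lowest to the highest tumour. Chromosome 15 had 0.27, 0.28, 0.09 and 0.00 in tumours 1 to 4, a span of 0.29. Chromosome 9 had -0.31, -0.19, -0.10 and -0.02, also a span of 0.29, and chromosome 12 had -0.29, -0.23, -0.07 and -0.02, a span of 0.27. Tumour 4 was thus near the reference on these 3 chromosomes, and its Raet1a stretch was at 0.61. The remaining probes of chromosome 10 stood at 0.00, -0.03, 0.01 and -0.02, so the stretch was not part of a change of its chromosome.

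**Figure D3:**
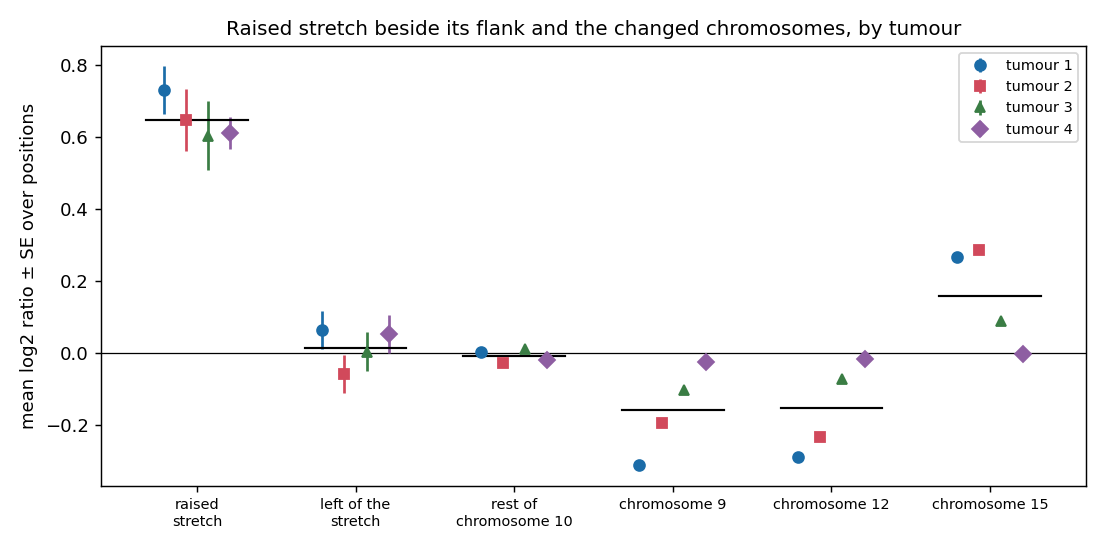
Mean log2 ratio of each tumour (points, with the SE over probes as bars, hidden by the point where small) for the raised stretch, the 23 probes to its left, the rest of chromosome 10 and 3 whole chromosomes; black lines are means of the 4 tumours. The stretch sits between 0.60 and 0.73 in all 4 tumours, while chromosomes 9, 12 and 15 spread from a change in tumours 1 and 2 to near 0 in tumour 4.

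The separate channels show how even the arrays were. After centring on its own autosomal median, the tumour channel over the stretch was at 0.94, 0.90, 0.82 and 0.87 on the log2 scale on arrays 1 to 4. The reference channel was at 0.20, 0.24, 0.22 and 0.24, so its SD over arrays was 0.02. Left of the stretch, the channels overlapped, with a mean of 0.29 for the tumours and 0.27 for the reference. Levels of different probes are not comparable, so only the gap between the channels over the same probes is read here.

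**Figure D4:**
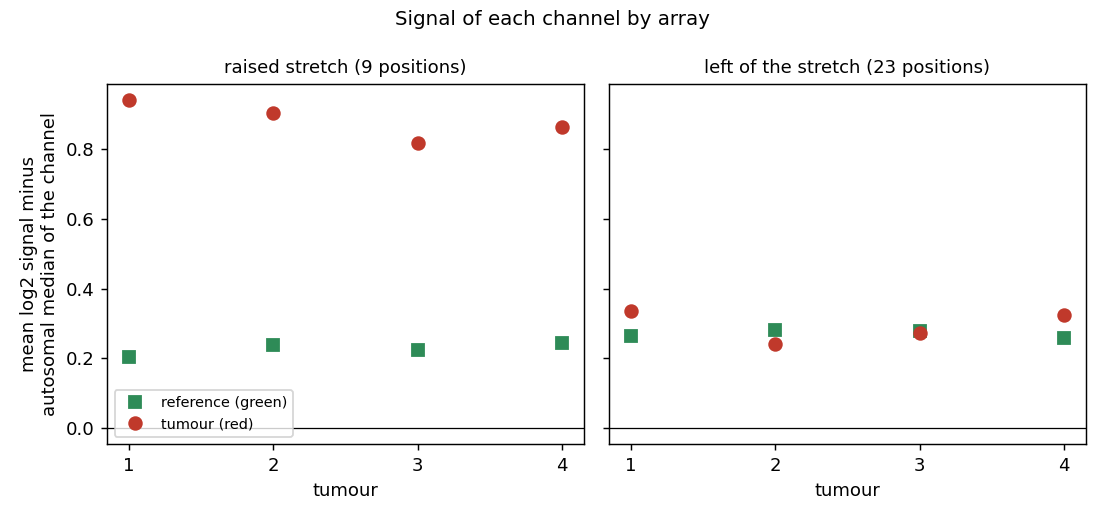
Mean log2 signal of the tumour (red circles) and reference (green squares) channel on each of the 4 arrays, relative to the autosomal median of the channel, over the 9 raised probes (left panel) and the 23 probes to their left (right panel). Over the stretch the tumour channel lies between 0.82 and 0.94 and the reference channel between 0.20 and 0.24; left of it both lie between 0.24 and 0.34.

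Whether the extra DNA was inherited or acquired in the tumours cannot be told apart with these arrays. The tumours were each set against reference DNA and not against normal tissue of the same mouse, and whether the 4 arrays used the same pool is not stated. What was measured is that the mean over the stretch was above 0.3 in 4 of 4 tumours, at similar height and without a change of the surrounding chromosome. The stretch itself was drawn from the mean over these tumours. Its right end was the same wherever it was segmented, while its left end differed between arrays. In tumour 2 it was not separated at the penalty of 4. A difference in copy number between the mice with tumours and the littermates in the pool, and a change that arose in each tumour, would both be read as a ratio of this kind. The share of tumour cells in each sample was not measured. The likeness of the 4 profiles is no independent evidence either, since all arrays share the probes and a reference of the same kind. Over the 9 probes of the stretch, Pearson correlations between pairs of tumours ran from 0.08 to 0.80. Over the other 26 probes of the window, which include the isolated high and low probes, they ran from 0.61 to 0.90. Over the rest of chromosome 10 they ran from -0.001 to 0.84. Tumours 1 and 3 were the least alike pair in each of these sets, and tumours 1 and 2 the most alike in the stretch and on the rest of the chromosome.

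Stretches raised or lowered in all 4 tumours were few. Runs of at least 5 consecutive autosomal probes that were each past 0.3 in either direction in every tumour numbered 2, and both were lower in the tumours. The Raet1a stretch did not meet this strict rule, because 3 of its 9 probes were under 0.3 in at least 1 tumour. It met the rule at a threshold of 0.2, with 8 probes. The deeper of the 2 runs covered Nlrp1b, DQ117583 and Nlrp1c on chromosome 11 (70989862 to 71107103) over 11 probes, with -3.74, -4.37, -5.05 and -4.11. Nlrp1b and Nlrp1c belong to the family of NLRP1 inflammasome sensors. The other covered AK046150, Entpd4, which encodes a nucleotide-hydrolysing enzyme, and AK031288 on chromosome 14 (69940426 to 69990374). Its 6 probes had -0.62, -0.70, -0.59 and -0.63, a mean of -0.64 ± 0.04 (SD, n = 4), so it matched the Raet1a stretch in size and in evenness over tumours, with the opposite sign.

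When each probe was judged by its mean over tumours instead, a rule added after the data were seen, 18 stretches of at least 5 probes passed, 8 higher and 10 lower. The Raet1a stretch was among the 2 higher ones with at least 8 probes. The other, 9 probes on chromosome 1 named BC013664 and EG214403 (named here after its values were seen), had 0.71, 0.69, 0.92 and 0.78. Of the 8 higher stretches, the chromosome 15 ones, such as Elfn2 with 0.68, 0.65, 0.17 and 0.17, were high in tumours 1 and 2 and lower in the other tumours. The means of the Raet1a stretch spanned 0.13, and such evenness was not particular to it. The lower stretches of chromosome 14 around Entpd4 and Loxl2 spanned 0.08 and 0.10. The 2 higher stretches of chromosome 12, with the array names AK136471 and ENSMUST00000109714, spanned 0.14 each. They lie at 114730525 to 114795605 and 115546624 to 115580624. The reference is labelled spleen, and whether tumour or reference DNA sets their ratios was not tested.

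Genes that act with NKG2D ligands were then examined outside the window, which the choice of the region did not use. Of a list of 44 genes, 29 were named on the array, and of its 10 ligands only Raet1a was. For the 28 genes outside the window, the mean ratio over each gene's probes was tested against 0 with limma. None passed an adjusted p of 0.05, against 30 of all 20794 genes tested (0.144%). At an unadjusted p of 0.05, 11 of the 28 (39.3%) passed, against 25.0% of all genes. That count fell to 5 without tumour 1 or without tumour 2 and rose to 15 without tumour 3. The ratios of the list were positive for 13 genes and negative for 15, with a median of -0.05 against 0.00 for all genes. With normexp background correction, 5 of the 28 passed, beside 10.5% of all genes.

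Klrk1, which encodes NKG2D itself, had 0.06, 0.37, -0.05 and -0.03 in tumours 1 to 4 (1 probe). The value of 0.37 came from tumour 2, whose array had a noise SD of 0.32. Tyrobp, the gene of an adaptor that carries the NKG2D signal, had 0.21, 0.13, -0.24 and -0.01, also from 1 probe. Neither gene was above 0 in all 4 tumours. The Raet1a stretch was drawn for being raised, so these single probes are not compared with it. Both genes are named for their roles. In all, 13 of the 28 genes rested on a single probe, which limits what such a gene can show.

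The ends of the list were genes of ligand shedding, the cleavage that releases NKG2D ligands from the cell surface. Adam17, a metalloprotease gene on chromosome 12, was the lowest, with -0.47, -0.56, -0.17 and -0.24 over 5 probes. Its mean was -0.36 ± 0.08 (SE, limma, n = 4, adjusted p = 0.11), in the direction of its chromosome, which was also low in tumours 1 and 2. Mmp9, a matrix metalloprotease gene on chromosome 2, was the highest, with 0.52, 0.55, 0.15 and 0.32 from 1 probe. Its mean was 0.39 ± 0.08 (SE, limma, n = 4, adjusted p = 0.11). Both genes were furthest from the reference in tumours 1 and 2, and the Raet1a stretch was also highest there, but only by up to 0.13. Those were also the noisiest arrays, with a noise SD of 0.26 and 0.32, and a link between these values was not tested.

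By role, every group of more than 1 gene ran from below 0 to above 0. The Raet1a stretch was drawn for its raised ratio, so its height is no yardstick for these groups. Of the 7 signalling genes, 4 were positive, and their means ran from -0.18 to 0.25. Of the 6 genes of other natural killer cell receptors, 1 was positive, and they ran from -0.26 to 0.07. The 4 effector genes ran from -0.19 to 0.11. The 6 genes of DNA damage and proliferation, stimuli that induce NKG2D ligands, ran from -0.27 to 0.16. The lowest of these 6 was Atr, a DNA damage kinase gene on chromosome 9, with -0.53, -0.34, -0.14 and -0.07, the order in which chromosome 9 itself was low. Atm and Chek1 of this group also lie on chromosome 9. Atm was low too, with -0.41, -0.20, -0.02 and -0.02, whereas Chek1 had 0.13, 0.20, -0.11 and 0.15.

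**Figure D5:**
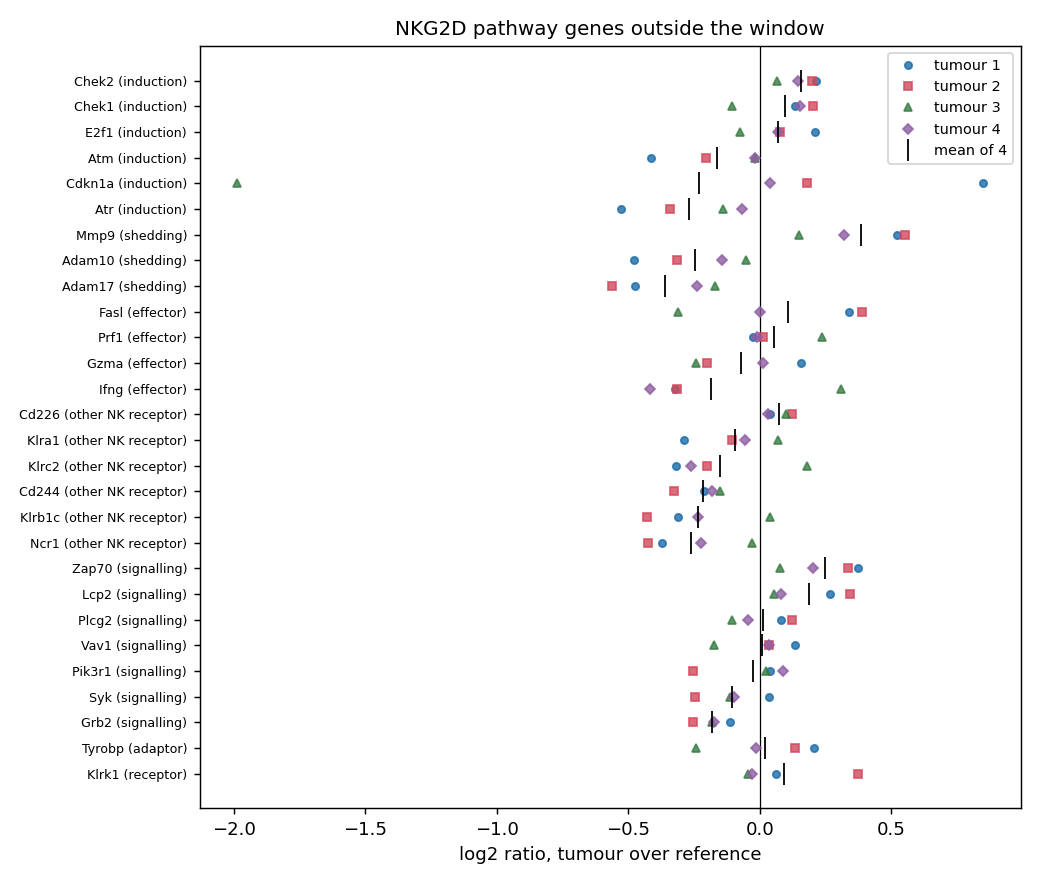
Log2 ratio of the 28 list genes outside the window in each tumour (coloured points) and their mean (black tick), grouped by role. Means run from -0.36 at Adam17 to 0.39 at Mmp9.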

How the data were processed

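Genomic DNA of 4 tumours and reference DNA was hybridised to 2-colour Agilent arrays. The deposited log10 ratios, red over green, were made with Agilent Feature Extraction 10.7.3.1 per the submitters' processing notes, after background subtraction and dye normalization per the file headers. The deposited intensity values are the processed, mean and background signals of each channel, and the error of each ratio is another deposited column, both per the file headers. The series value table, also log10, matched the scanner ratios to within 0.02 on the log2 scale.

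Ratios were turned to log2. Control and outlier spots (93 to 126 per array) were left out, spots of a probe averaged and arrays centred on the autosomal median. At least 99.96% of genomic spots were above background in each channel. A gene's value averages the probes between the ends of its named probes, with no flank. Gene means were tested against 0 with limma 3.58.1 (R 4.3.3) with Benjamini-Hochberg adjustment over all genes; this leaves out the spread of the reference. Chromosome 10 was segmented by exact penalised least squares with a penalty of 4 and a minimum mean of 0.2. Probe sequences were compared with blastn 2.17.0 at a word size of 7. Methods were tested on simulated data.

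The tumours form 1 group and are numbered in accession order, which pairs nothing. The window and the lists were chosen with earlier results of these data known. The naming rule was Raet1a and every gene name in the window; list members that passed limma or were its highest or lowest; and the first 3 gene names of stretches past 0.3 in all 4 tumours. Klrk1, Tyrobp, Atr, Atm, Chek1, EG214403, BC013664, Elfn2, AK136471 and Loxl2 fall outside it. The RefSeq tables are of GRCm38.p6 and gave names, order and start regions only. Alternatives were normexp (offset 50), other centring, the value table, only probes above background, GC correction, the median, other thresholds, penalties, run lengths and flanks, and each tumour left out. All 12 Raet1a probes, the stretch without its highest probe and the rule on means were added later.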

Additional observations from a re-analysis of the deposited data

Results flagged for a closer look

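Among 44 sets of 4 tumour values checked for a value far from the others, 3 stood out, and chance gives about 1 in 20. All 3 lie left of the raised stretch. At the unnamed probe at 21736016, tumour 3 was at -0.26 while the other tumours lay between 0.10 and 0.12. At the probe at 21825263, tumour 3 was at 0.12 and the others between 0.00 and 0.02, a gap smaller than the error of a single ratio. For Sgk1, tumour 2 was at -0.028 and the others at 0.06. No probe of the raised stretch stood out in this way.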

How the results depend on the processing

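The mean ratio of the raised stretch was 0.65 and moved beyond the spread between tumours under normexp (0.89) and over all 12 probes named Raet1a (0.48). Under the other 11 alternatives it lay between 0.60 and 0.66, with each tumour left out among them. The length of 9 probes became 8 at a threshold of 0.4, with GC correction and without tumour 1, and 8 to 9 with a tumour left out. Where segmentation did not separate the stretch, the segment held 8515 probes (tumour 2 at penalties of 4 and 8, tumour 4 and the mean over tumours at 8) or 5099 probes (tumour 1 at 8). The 2 stretches past the threshold in all 4 tumours became 4 at a threshold of 0.2, 8 with at least 3 probes, 1 with at least 8 probes and 18 by the mean over tumours. With a tumour left out they numbered 2 to 5. Without tumour 2 the Raet1a stretch met that rule with 6 probes, and with normexp it did with 8. Genes of the NKG2D list past limma numbered 0, and 5 with normexp (Adam17, Cd244, Chek2, Klrb1c and Mmp9), where 2188 of all genes passed. They stayed at 0 with each tumour left out and under the other alternatives run. Over all genes 30 passed, 8 without tumour 1, 0 without tumour 2 or tumour 4, and 385 without tumour 3. The cause was not tested. No paired analysis was possible because all samples form 1 group. The slide as a random block was not run, because its correlation could not be estimated from 4 arrays on 3 slides.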
